A study of Saccharomyces cerevisiae with 16 samples.

Results

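Salt stress and inhibition of membrane lipid synthesis were compared in budding yeast by setting a culture grown with 0.4 M NaCl against cultures grown with myriocin or with fenpropimorph. The comparison used 6 of the 16 libraries of the series and 6602 of its 6697 coding sequences (CDS), those with a mean of at least 10 reads over the 8 libraries of each library type. A gene was counted as a member when its change in NaCl had the same direction against both drugs and in both library types. Of the genes tested, 2383 (36.1%) were higher in NaCl in all 4 comparisons and 2095 (31.7%) were lower, so 4478 genes kept one direction. A smaller set, at least 2-fold changed in all 4 comparisons, held 27 higher genes (0.409%) and 316 lower genes (4.79%), and the words rose and fell are used below for these 2-fold genes only. Since these values chose the members, they are given as a description and without a test. The shares over all genes are the background for the counts of each gene list below.

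The NaCl culture carried 0.4 M sodium chloride, which imposes both osmotic and sodium ion stress. The myriocin culture carried 0.32 µg/ml of an inhibitor of serine palmitoyltransferase, the first enzyme of sphingolipid synthesis, and the fenpropimorph culture carried 0.85 µM of a morpholine fungicide that inhibits sterol C-14 reductase (*ERG24*) and sterol C-8 isomerase (*ERG2*) in the ergosterol pathway. All 3 cultures are labelled as wild type with no strain name, grew in the rich medium YPD, and were re-inoculated every 8 h over 24 h to hold them in exponential growth. The drug concentrations were picked from gradients for growth inhibition near 50%, whereas NaCl was used at a single concentration, so growth rate and stressor cannot be told apart. No untreated culture entered the comparison, so a gene described as lower in NaCl may equally be called higher in both drugs.

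RNA of each culture gave 1 polyadenylated (polyA) and 1 ribo-depleted library. These are 2 preparations of the same RNA and not replicates, so differences between cultures could not be checked in replicates, no p-value is given, and the 95% intervals cover counting error only. Between 34239434 and 50337762 reads were counted on CDS in the 3 polyA libraries and between 36377857 and 46880792 in the ribo-depleted ones. Both drugs were compared with the same NaCl library of a type, so the comparisons share it, and their values are set side by side without a correlation. Levels are CPM, read counts scaled to a common library size normalized by TMM (trimmed mean of M-values), and changes are log2 ratios, where 1 is a 2-fold higher and −1 a 2-fold lower level in NaCl. The median change over all genes was 0.02 against myriocin and 0.03 against fenpropimorph in polyA RNA, and 0.04 and −0.00 in ribo-depleted RNA. Median changes per nuclear chromosome stayed between −0.21 and 0.13 in the 4 comparisons. Of the auxotrophic markers, *LEU2*, *URA3* and *MET17* had at most 1 read in each of the 6 libraries, and *HIS3* and *LYS2* were read in all. Mating type markers were not alike in the cultures. Of 12 strain markers listed, 10 passed the read filter, and 2 of these rose and 1 fell by the 2-fold rule. The filter averages over all 8 libraries of a type, so a marker can pass it through reads in cultures outside the comparison. The a-cell genes *STE2* and *MFA2* rose, and *STE3*, the receptor of α cells, fell, with 52, 591 and 440 reads in NaCl, myriocin and fenpropimorph in polyA RNA. The α-factor gene *MF(ALPHA)1* had at most 10 reads in each of the 6 libraries and *MF(ALPHA)2* had 381, 390 and 263 reads in polyA RNA. The *STE2* count was at least 5980 in each of them. Because whole cultures were sequenced, a lower level in every cell and a smaller share of expressing cells cannot be told apart.

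Yeast meets high salt through the HOG (high osmolarity glycerol) kinase pathway, which raises glycerol synthesis, and through the sodium pump Ena1. Many stresses, and slow growth itself, also turn on a general program through the transcription factors Msn2 and Msn4, which bind the stress response element (STRE), and this program is held off by protein kinase A when glucose is plentiful. Ribosomal protein and ribosome biogenesis genes usually move the opposite way to that program. Ergosterol and sphingolipids are the main sterol and a major lipid class of the yeast plasma membrane, and ergosterol genes are turned on by the factors Upc2 and Ecm22 when sterol runs low.

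The difference from each drug was uneven. Against myriocin, 82 genes (1.24%) were at least 2-fold higher and 467 (7.07%) at least 2-fold lower in NaCl in polyA RNA, and in ribo-depleted RNA these numbers were 70 (1.06%) and 507 (7.68%). Against fenpropimorph, 622 genes (9.42%) were at least 2-fold higher and 847 (12.8%) lower in polyA RNA, and 586 (8.88%) and 812 (12.3%) in ribo-depleted RNA. In each comparison more genes lay on the lower than on the higher side of the 2-fold mark. The 316 lower genes together held 0.767% of all CDS reads in NaCl, against 3.63% in myriocin and 6.07% in fenpropimorph in polyA RNA, and 0.585%, against 1.76% and 3.43%, in ribo-depleted RNA. The 27 higher genes held 0.487% in NaCl, against 0.176% and 0.140%, and in ribo-depleted RNA 0.410%, against 0.111% and 0.100%. Genes nearest to the 2-fold mark on the higher side were *AAT1* and *MFA2* inside it, with smallest changes of 1.02 and 1.04, and YJL195C and *GPA1* outside it, with 0.96 and 0.93. On the lower side *PHD1* and *ORM2* lay just inside and *AGP2* and *HSP82* just outside, at smallest changes of −1.003, −1.005, −0.99995 and −0.9975 in that order. The 2 library types differed by more than 2-fold in their change for 107 genes against myriocin and 162 against fenpropimorph.

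**Figure D1:**
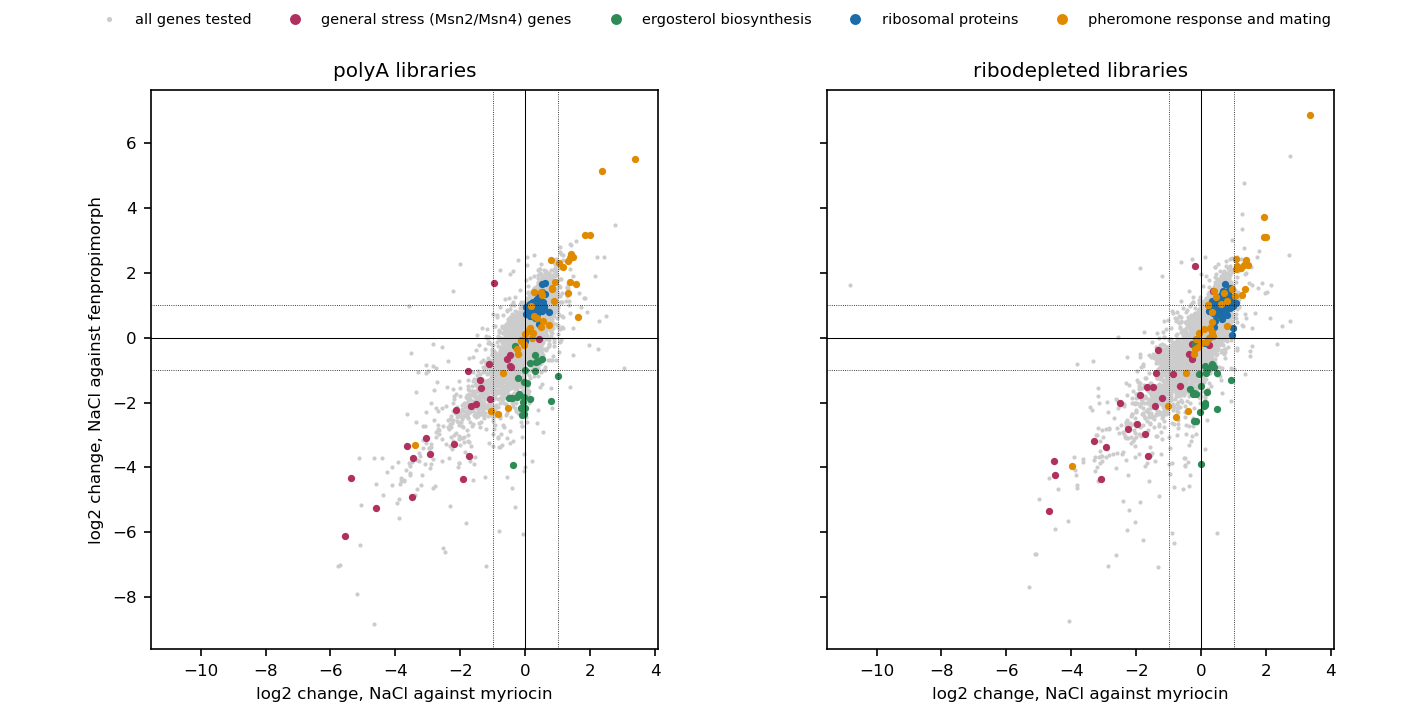
Log2 change in NaCl against myriocin (horizontal axis) and against fenpropimorph (vertical axis) for each of 6602 genes, in polyA RNA (left) and ribo-depleted RNA (right), with 4 gene lists coloured and dotted lines at 2-fold. Both axes use the same NaCl library, so the points lean to the diagonal by construction. Most general stress genes lie in the lower left, most pheromone genes in the upper right, ribosomal protein genes to the right of and above 0, and ergosterol genes near 0 against myriocin but below 0 against fenpropimorph.

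Mating genes led the higher side. Cells of mating type a respond to α-factor through the receptor Ste2, a G protein and a MAP kinase cascade that activates the transcription factor Ste12, and they make adhesins and fusion proteins for mating. A list of 44 genes of this pathway was drawn up after its genes had been seen at the top, so its counts only describe it. Of the 44, 29 were higher in all 4 comparisons and 9 lower, and 13 rose and 2 fell by the 2-fold rule. Its medians were 0.50 against myriocin and 0.82 against fenpropimorph in polyA RNA, and 0.35 and 0.89 in ribo-depleted RNA.

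*AGA1* (YNR044W, chromosome XIV, 703699 to 705876 in build R64), the cell wall anchor of the a-agglutinin adhesin, had 362 CPM in NaCl, against 90.3 in myriocin and 40.2 in fenpropimorph in polyA RNA, and 585 CPM in NaCl, against 153 in myriocin and 68.6 in fenpropimorph in ribo-depleted RNA. NaCl was the highest and fenpropimorph the lowest culture in both. The change in polyA RNA was 2.00 (interval 1.95 to 2.06) against myriocin and 3.17 (interval 3.09 to 3.25) against fenpropimorph, and in ribo-depleted RNA it was 1.94 (interval 1.90 to 1.98) and 3.09 (interval 3.04 to 3.15). *AGA2* (YGL032C, chromosome VII, 436570 to 436833), which encodes the binding subunit attached to Aga1, followed the same order with 158 CPM in NaCl, 44.3 in myriocin and 17.7 in fenpropimorph in polyA RNA, and 114, 28.2 and 13.3 CPM in ribo-depleted RNA. *FUS1* (YCL027W, chromosome III, 71803 to 73341), a membrane protein needed for cell fusion, had 53.04 CPM in NaCl, 20.1 in myriocin and 8.87 in fenpropimorph in polyA RNA, and 32.2, 12.4 and 6.08 CPM in ribo-depleted RNA, and changed by 1.40 against myriocin and 2.58 against fenpropimorph in polyA RNA, and 1.38 and 2.401 in ribo-depleted RNA. Thus NaCl was above myriocin and myriocin above fenpropimorph for all 3 genes.

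The receptor gene *STE2* (YFL026W, chromosome VI, 82580 to 83875) had 1100.3 CPM in NaCl, 494 in myriocin and 245 in fenpropimorph in polyA RNA, and 635, 273 and 144 CPM in ribo-depleted RNA, and its smallest change was 1.15. Genes that dampen the signal rose as well. *SST2*, the regulator that shuts off the G protein, had 254 CPM in NaCl, 90.8 in myriocin and 45.7 in fenpropimorph in polyA RNA, and 194, 78.1 and 41.4 CPM in ribo-depleted RNA. *BAR1*, the secreted protease that destroys α-factor, had 344 CPM in NaCl, 136 in myriocin and 67.4 in fenpropimorph in polyA RNA, and 188, 87.2 and 40.7 CPM in ribo-depleted RNA. *FAR1*, which stops the cell cycle in response to pheromone, had 261 CPM in NaCl, 89.1 in myriocin and 83.6 in fenpropimorph in polyA RNA, and 172, 71.5 and 69.7 CPM in ribo-depleted RNA, and here the drugs lay close together. The karyogamy transcription factor gene *KAR4* changed by 1.39 against myriocin and 1.73 against fenpropimorph in polyA RNA, and 1.35 and 1.50 in ribo-depleted RNA, and *MFA2*, one of the genes for a-factor, by 1.04 against myriocin and 2.29 against fenpropimorph in polyA RNA, and 1.44 and 2.23 in ribo-depleted RNA. *MFA1*, the other a-factor gene, missed the rule with 0.79 against myriocin in polyA RNA, as did *GPA1* for the G protein α subunit with 0.93 and *STE12* with 0.82.

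Some of these genes were scarcely read in the drugs. *PRM6*, a pheromone-regulated membrane protein gene, had 297, 30 and 5 reads in NaCl, myriocin and fenpropimorph in polyA RNA and 56, 5 and 0 reads in ribo-depleted RNA, so its level in fenpropimorph was at or under the floor of 3 reads in ribo-depleted RNA and no fold is given there. In polyA RNA its change was 3.39 (interval 2.85 to 3.93) against myriocin and 5.52 (interval 4.30 to 6.74) against fenpropimorph. The reading frame YML047W-A lies over *PRM6* and the reads of the pair cannot be separated. *FIG1*, a mating-induced membrane protein gene, had 311, 65 and 7 reads in polyA RNA and 32, 8 and 2 in ribo-depleted RNA, in the same order of cultures. *STE3*, the a-factor receptor that α cells make, went the other way with 52, 591 and 440 reads in polyA RNA and 16, 256 and 259 in ribo-depleted RNA. It fell by at least 3.31 on the log2 scale, although YKL177W overlaps it. The part of these mating type markers in the changes of the pheromone genes was not tested.

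The pheromone response element bound by Ste12 was searched as TGAAACA on both strands in the 500 bp before each start codon, in the R64 reference genome. It was found before 31 of the 44 listed genes (70.5%) and 13 of the 27 genes that rose (48.1%), against 12% of all 6594 upstream regions searched and 9.18% of the 316 that fell. The nearest matches to the start codon are shown for 6 genes that rose, because they show which of these genes carry the letters, in the direction of the gene and with the match in capitals.
FUS1, chrIII:71633-71659: gtctgtaattTGAAACAaataacgtaa
AGA1, chrXIV:703487-703513: cataattttcTGAAACAatattaaaac
SST2, chrXII:1041595-1041621: tattcaatttTGAAACAatgatcccaa
STE2, chrVI:82373-82399: aagtacatgaTGAAACAcatatgaaga
PRM6, chrXIII:181215-181241: acgaatgatcTGAAACAataaaaaaag
KAR4, chrIII:27819-27845: cgacataactTGTTTCAacttttcaag
In *KAR4* the match is on the opposite strand and reads TGTTTCA. The windows of *FAR1* and *FIG1* held no match, which says only that these letters are absent there.

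Among the other genes that rose, *IMD2* (YHR216W, chromosome VIII, 554396 to 555967) had the largest change outside the mating genes and the frame over *PRM6*, taking the smallest of the 4 changes of each gene. It encodes IMP dehydrogenase, the first committed step of guanine nucleotide synthesis, and had 198 CPM in NaCl, against 36.7 in myriocin and 35.4 in fenpropimorph in polyA RNA and 48.8 CPM in NaCl, against 7.53 in myriocin and 8.39 in fenpropimorph in ribo-depleted RNA. The drugs were nearly equal and NaCl stood above both. The change was 2.43 (interval 2.35 to 2.51) and 2.49 (interval 2.397 to 2.57) in polyA RNA against myriocin and fenpropimorph, and 2.69 (interval 2.52 to 2.87) and 2.54 (interval 2.37 to 2.70) in ribo-depleted RNA. Its relatives *IMD3* and *IMD4*, which share no 100-bp stretch with it, changed less, by at least 0.47 and 0.38.

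Purine and one-carbon genes went both ways. In a list of 29 genes of purine synthesis and one-carbon metabolism, also drawn up after values had been seen, 10 were higher and 16 lower in all 4 comparisons, and 7 fell by the rule: *ADE17*, *GCV1*, *SHM2*, *ADE1*, *ADE2*, *ADE13* and *MTD1*. *ADE17* (YMR120C, chromosome XIII, 507502 to 509280), which carries out the last steps to IMP, had 152 CPM in NaCl, against 1347 in myriocin and 1590.1 in fenpropimorph in polyA RNA, and 83.8 CPM in NaCl, against 801 in myriocin and 1074 in fenpropimorph in ribo-depleted RNA. The change was −3.15 (interval −3.18 to −3.11) and −3.39 (interval −3.42 to −3.35) in polyA RNA, and −3.26 (interval −3.31 to −3.21) and −3.68 (interval −3.73 to −3.63) in ribo-depleted RNA. Its isozyme gene *ADE16*, with no 100-bp stretch in common, had 322 CPM in NaCl, against 331 in myriocin and 328 in fenpropimorph in polyA RNA, with changes between −0.04 and 0.05. *SHM2*, the cytosolic serine hydroxymethyltransferase that feeds one-carbon units to purines, had 361 CPM in NaCl, 1379 in myriocin and 1723 in fenpropimorph in polyA RNA, and 242, 1082 and 1283 CPM in ribo-depleted RNA. *GCV1*, a subunit of the mitochondrial glycine decarboxylase, changed by −2.29 against myriocin and −2.75 against fenpropimorph in polyA RNA, and −2.33 and −2.71 in ribo-depleted RNA.

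Letters of the core site for the factors Bas1 and Gcn4, TGACTC on either strand, were found in 20 of the 29 upstream regions of this list (69%), against 13% of all regions and 15.8% of the 316 that fell. Matches before 4 of the genes that fell are given to show the site in its context, again with the match in capitals.
ADE17, chrXIII:509442-509467: agaaatgaatTGACTCctctcataac
SHM2, chrXII:259613-259638: cataaaggttTGACTCtatctcttgg
GCV1, chrIV:485493-485518: tcaggagcccTGACTCgtgttgcctc
ADE2, chrXV:566329-566354: actaagtgatTGACTCttgctgacct

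The remaining named genes that rose have unlike roles. *DIC1*, the mitochondrial dicarboxylate carrier, had 136 CPM in NaCl, 37.4 in myriocin and 57.7 in fenpropimorph in polyA RNA, and 39.1, 10.01 and 14.9 CPM in ribo-depleted RNA, and the reading frame YLR349W overlaps it. *RRN11*, a subunit of the core factor of RNA polymerase I, changed by 1.35 against myriocin and 2.53 against fenpropimorph in polyA RNA, and 1.12 and 2.04 in ribo-depleted RNA. *CLB6*, a cyclin of S phase, had 16.4 CPM in NaCl, 7.31 in myriocin and 2.78 in fenpropimorph in polyA RNA, and 13.6, 6.24 and 2.41 CPM in ribo-depleted RNA. *JJJ3*, which acts in the synthesis of diphthamide on elongation factor 2, had 30.9 CPM in NaCl, 11.9 in myriocin and 7.08 in fenpropimorph in polyA RNA, and 9.59, 3.62 and 1.88 CPM in ribo-depleted RNA. *RDT1*, a very short reading frame, rose by at least 1.38. *LCP5* of the small subunit processome, the mitochondrial aspartate aminotransferase gene *AAT1* and the mitochondrial carrier gene *YMC2* rose at smallest changes of 1.04, 1.02 and 1.09.

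**Figure D2:**
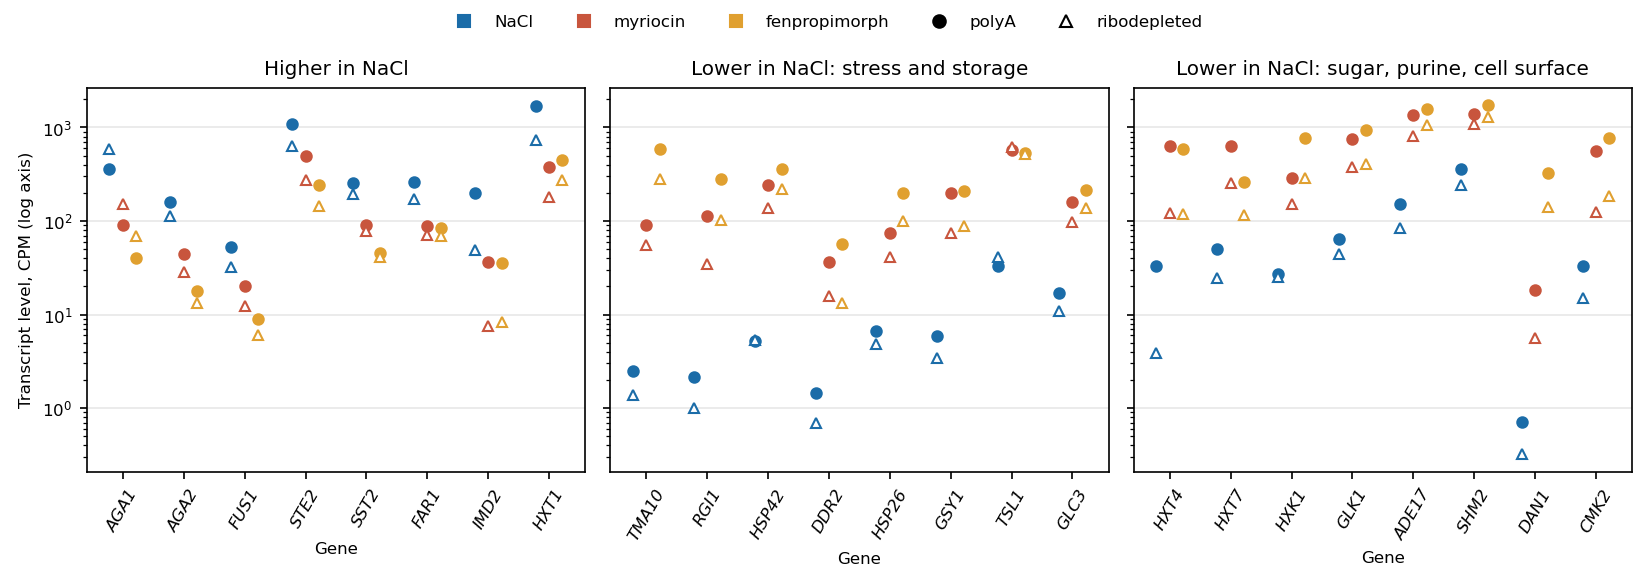
Transcript level in CPM on a log axis for 24 genes in NaCl, myriocin and fenpropimorph, with 1 point per library (filled circles polyA, open triangles ribo-depleted). In the left panel the NaCl points lie above both drugs for each gene, and in the other panels they lie below both, as for *TMA10* with 2.48 CPM in NaCl, 90.7 in myriocin and 590 in fenpropimorph in polyA RNA.

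Genes of hexose transport and glucose phosphorylation differed by isoform. Yeast has a family of glucose carriers, of which Hxt1 and Hxt3 have low affinity and serve at high glucose while Hxt2, Hxt4, Hxt6 and Hxt7 have higher affinity and serve when glucose is scarce. Of 24 genes of transport and glucose sensing, 1 was higher and 15 lower in all 4 comparisons, and 1 rose and 8 fell by the 2-fold rule. *HXT1* (YHR094C, chromosome VIII, 290913 to 292625), the gene that rose, had 1684 CPM in NaCl, against 376 in myriocin and 449 in fenpropimorph in polyA RNA, and 734 CPM in NaCl, against 179 in myriocin and 275 in fenpropimorph in ribo-depleted RNA. The change was 2.16 (interval 2.14 to 2.19) and 1.91 (interval 1.88 to 1.93) in polyA RNA and 2.03 (interval 2.00 to 2.07) and 1.41 (interval 1.38 to 1.44) in ribo-depleted RNA. *HXT3*, the other low-affinity carrier, was instead lower in NaCl, with 1004 CPM in NaCl, 1813 in myriocin and 4401 in fenpropimorph in polyA RNA, and 410.2, 669 and 2017 CPM in ribo-depleted RNA. These genes share no 100-bp stretch.

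*HXT4* (YHR092C, chromosome VIII, 287081 to 288811) had 33.3 CPM in NaCl, against 635 in myriocin and 589.9 in fenpropimorph in polyA RNA, and 3.84 CPM in NaCl, against 122 in myriocin and 119.5 in fenpropimorph in ribo-depleted RNA. NaCl was the lowest culture by far and the drugs were close to each other, with changes of −4.25 against myriocin and −4.15 against fenpropimorph in polyA RNA, and −4.98 and −4.96 in ribo-depleted RNA. *HXT7* had 50.6 CPM in NaCl, 633 in myriocin and 259 in fenpropimorph in polyA RNA, and 24.9, 258 and 117 CPM in ribo-depleted RNA. *HXT6* had 69.8 CPM in NaCl, 623 in myriocin and 459 in fenpropimorph in polyA RNA, and 26.9, 252 and 216 CPM in ribo-depleted RNA, but 94.9% of its 100-bp windows occur in *HXT7* too, so the split of reads between them is uncertain. *HXT10* also fell but had only 18, 61 and 44 reads in polyA RNA. *HXT2* was lower in all 4 without passing the rule, with changes of −0.56 to −1.77.

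Sugar kinase genes also differed by isoform. *HXK1* had 26.9 CPM in NaCl, 286 in myriocin and 775 in fenpropimorph in polyA RNA, and 24.99, 151 and 292 CPM in ribo-depleted RNA, and *GLK1*, the glucokinase gene, had 64.1 CPM in NaCl, 761 in myriocin and 932 in fenpropimorph in polyA RNA, and 44.4, 382 and 405 CPM in ribo-depleted RNA. *EMI2*, which encodes a protein related to glucokinase, changed by −3.07 against myriocin and −3.89 against fenpropimorph in polyA RNA, and −2.72 and −3.58 in ribo-depleted RNA. All 3 fell, whereas *HXK2*, the main hexokinase gene of fermenting cells, changed by 0.25 against myriocin and −0.66 against fenpropimorph in polyA RNA, and 0.46 and −0.53 in ribo-depleted RNA, above myriocin but below fenpropimorph. *MTH1*, a repressor of hexose transporter genes at low glucose, fell by at least 1.93 on the log2 scale. Per length, in polyA RNA of NaCl cells *HXT1* (983 CPM per kb of CDS, RPKM) and *HXT3* (589 RPKM) led the carriers and *HXT4* had 19.2 RPKM, whereas in myriocin *HXT3* had 1064 RPKM, *HXT7* 369.7, *HXT4* 367 and *HXT1* 219.

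**Figure D3:**
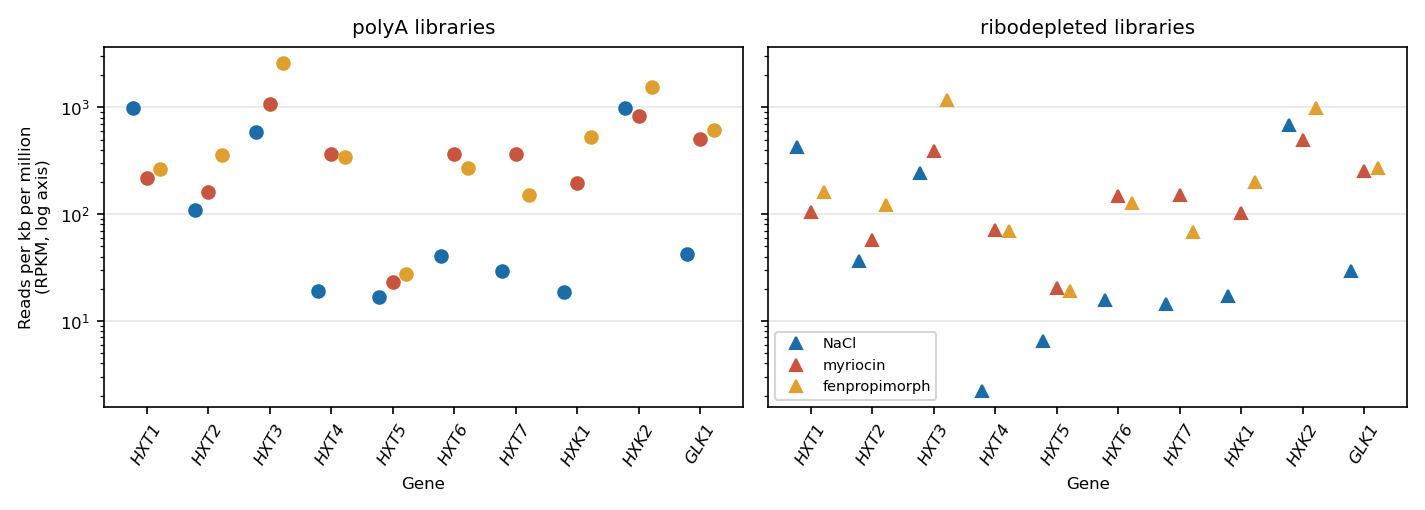
Level per length (RPKM, log axis) of 7 hexose carrier genes and 3 sugar kinase genes in NaCl, myriocin and fenpropimorph, 1 library per point, in polyA RNA (left) and ribo-depleted RNA (right). *HXT1* is the carrier with NaCl above both drugs, and NaCl is lowest for *HXT4*, *HXT6*, *HXT7*, *HXK1* and *GLK1* in both panels.

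In a list of 23 genes of glycolysis and fermentation, drawn up after values had been seen, 14 were higher and 8 lower in all 4 comparisons. Beside *GLK1* and *HXK1*, the minor isoforms *TDH1*, *PYK2* and *ENO1* fell. *TDH1*, a glyceraldehyde-3-phosphate dehydrogenase gene, had 141 CPM in NaCl, 1412 in myriocin and 1944 in fenpropimorph in polyA RNA, and 104, 435 and 666 CPM in ribo-depleted RNA. The major isoform *TDH3* changed by only 0.37 to 0.44, and *PDC1*, the main pyruvate decarboxylase gene, by 0.43 to 0.63, both upward in all 4.

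General stress genes were mostly lower in NaCl. Of 26 listed targets of Msn2 and Msn4, 1 was higher and 23 lower in all 4 comparisons, and 16 fell by the rule, with medians of −1.69 against myriocin and −2.08 against fenpropimorph in polyA RNA, and −1.55 and −1.81 in ribo-depleted RNA. *TMA10* (YLR327C, chromosome XII, 783127 to 783387), which encodes a ribosome-associated protein and was in no list, had the largest decrease of all, taking the smallest of the 4 changes of each gene. In single comparisons other genes were lower. *TMA10* had 2.48 CPM in NaCl, against 90.7 in myriocin and 590 in fenpropimorph in polyA RNA, and 1.38 CPM in NaCl, against 54.8 in myriocin and 283 in fenpropimorph in ribo-depleted RNA. Its change was −5.19 (interval −5.47 to −4.90) and −7.89 (interval −8.17 to −7.60) in polyA RNA, and −5.30 (interval −5.68 to −4.92) and −7.67 (interval −8.05 to −7.29) in ribo-depleted RNA. The order of the cultures was fenpropimorph, then myriocin, then NaCl.

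*HSP42* (YDR171W, chromosome IV, 806621 to 807748), the small heat shock protein that gathers misfolded proteins into foci, had 5.19 CPM in NaCl, against 242 in myriocin and 360.1 in fenpropimorph in polyA RNA, and 5.34 CPM in NaCl, against 137 in myriocin and 218 in fenpropimorph in ribo-depleted RNA. That was a change of −5.54 against myriocin and −6.11 against fenpropimorph in polyA RNA, and −4.68 and −5.35 in ribo-depleted RNA. *HSP26*, another small heat shock protein gene, had 6.73 CPM in NaCl, 75.2 in myriocin and 201 in fenpropimorph in polyA RNA, and 4.895, 41.6 and 99.5 CPM in ribo-depleted RNA. *HSP104*, the disaggregase, had 92.4 CPM in NaCl, 1009 in myriocin and 1201 in fenpropimorph in polyA RNA, and 51.9, 399 and 534 CPM in ribo-depleted RNA, and *HSP30*, a plasma membrane protein that restrains the proton pump, had 11.7 CPM in NaCl, 486 in myriocin and 235 in fenpropimorph in polyA RNA, and 3.74, 86.7 and 52.3 CPM in ribo-depleted RNA. In *HSP30* myriocin was the highest culture, and in *HSP26* and *HSP104* fenpropimorph was. *DDR2*, a multistress gene, had 1.47 CPM in NaCl, 36.05 in myriocin and 56.5 in fenpropimorph in polyA RNA, and 0.689, 15.8 and 13.2 CPM in ribo-depleted RNA, and the catalase gene *CTT1* had 16.2 CPM in NaCl, 41.7 in myriocin and 47.4 in fenpropimorph in polyA RNA, and 7.48, 27.9 and 25.4 CPM in ribo-depleted RNA.

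*RGI1* (YER067W, chromosome V, 292066 to 292551), named for its induction in respiratory growth, had 2.18 CPM in NaCl, 114 in myriocin and 282 in fenpropimorph in polyA RNA, and 1.01, 34.5 and 103 CPM in ribo-depleted RNA, but 2 reading frames, YER066C-A and YER067C-A, lie over it and were also counted among the lower genes. *MSN4*, which encodes one of the activators itself, had 43.5 CPM in NaCl, 124 in myriocin and 181 in fenpropimorph in polyA RNA, and 26.7, 71.5 and 115 CPM in ribo-depleted RNA, while *MSN2* changed by 0.43 against myriocin and −0.03 against fenpropimorph in polyA RNA, and 0.24 and −0.24 in ribo-depleted RNA. *HSP12*, a stress gene often used as a marker of this program, differed in direction between the drugs. It had 119.5 CPM in NaCl, 234 in myriocin and 37.5 in fenpropimorph in polyA RNA, and 128, 145 and 27.5 CPM in ribo-depleted RNA, so NaCl lay below myriocin but above fenpropimorph, with changes of −0.97 against myriocin and 1.67 against fenpropimorph in polyA RNA, and −0.18 and 2.22 in ribo-depleted RNA. *GRE2*, a reductase gene, was the listed gene that was higher in all 4 comparisons, at 0.38 or more, although YOL150C overlaps it.

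Reserve carbohydrate genes were mostly lower too. Of 20 genes of trehalose and glycogen metabolism, 1 was higher and 16 lower in all 4 comparisons, and 11 fell, with medians of −1.67 against myriocin and −1.83 against fenpropimorph in polyA RNA, and −1.83 and −1.72 in ribo-depleted RNA. *GSY1* (YFR015C, chromosome VI, 174265 to 176391), a glycogen synthase gene, had 5.92 CPM in NaCl, against 199 in myriocin and 209 in fenpropimorph in polyA RNA, and 3.47 CPM in NaCl, against 73.8 in myriocin and 88.7 in fenpropimorph in ribo-depleted RNA. Changes of −5.07 against myriocin and −5.14 against fenpropimorph in polyA RNA, and −4.41 and −4.67 in ribo-depleted RNA put it among the 15 named decreases. *TSL1*, the large subunit of trehalose synthase, had 33.3 CPM in NaCl, 570 in myriocin and 529 in fenpropimorph in polyA RNA, and 41.1, 619 and 526 CPM in ribo-depleted RNA. *GLC3*, the glycogen branching enzyme gene, had 17.04 CPM in NaCl, 159.8 in myriocin and 214 in fenpropimorph in polyA RNA, and 10.9, 96.8 and 139 CPM in ribo-depleted RNA, and *GSY2*, the other glycogen synthase, had 30.1 CPM in NaCl, 289.8 in myriocin and 356 in fenpropimorph in polyA RNA, and 15.03, 131 and 169 CPM in ribo-depleted RNA. *IGD1*, an inhibitor of glycogen debranching, was not listed and fell by at least 3.82 on the log2 scale. *NTH1*, the neutral trehalase that breaks trehalose down, fell as well, by at least 1.28. *PIG1*, a regulatory subunit gene, was the member higher in all 4, at 0.07 to 0.49.

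The STRE was searched as AGGGG on both strands in the same 500-bp regions. It was present before 231 of the 316 genes that fell (73.1%) and 4 of the 27 that rose (14.8%), against 33.9% of all regions. The PAC box GATGAG was present before 23.1% of the genes that fell, against 27.9% of all. Sites before 6 of the genes described above are shown to place the letters against the start codon, at 160 to 333 bp from it.
TMA10, chrXII:783711-783735: gagccaccccCCCCTcaggagtaaa
HSP42, chrIV:806429-806453: ccttggcggcAGGGGggaggcctct
GSY1, chrVI:176709-176733: acaagtaataCCCCTtggaggattt
TSL1, chrXIII:70449-70473: ggtagaaccaAGGGGctagcacact
DDR2, chrXV:231916-231940: tcttttctcaCCCCTtatgggacat
HSP26, chrII:381694-381718: ttattccctcCCCCTtatgcgtcca
The matches of *TMA10*, *GSY1*, *DDR2* and *HSP26* are on the opposite strand and read CCCCT.

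The other named decreases cover several functions. *SOL4*, a 6-phosphogluconolactonase gene, had 1.85 CPM in NaCl, 44.7 in myriocin and 42.6 in fenpropimorph in polyA RNA, and 1.08, 16.2 and 18.5 CPM in ribo-depleted RNA. *BAG7*, a GTPase-activating protein for Rho1, had 1.67 CPM in NaCl, 25.1 in myriocin and 79.6 in fenpropimorph in polyA RNA, and 0.886, 15.4 and 45.4 CPM in ribo-depleted RNA. *BNA2*, the first enzyme of NAD synthesis from tryptophan, had 2.03 CPM in NaCl, 28.6 in myriocin and 43.4 in fenpropimorph in polyA RNA, and 1.23, 17.4 and 30.9 CPM in ribo-depleted RNA, with YJR079W overlapping it. In all 3, NaCl was the lowest culture. *MGA1*, which encodes a protein similar to heat shock transcription factor, changed by −3.92 against myriocin and −3.84 against fenpropimorph in polyA RNA, and −3.63 and −3.75 in ribo-depleted RNA. *TPO4* and *TPO2*, exporters of polyamines, fell by at least 3.68 and 2.18 on the log2 scale, and of 24 genes of the Pdr1 and Pdr3 multidrug list, 4 were higher and 9 lower in all 4 comparisons. Over all genes 36.1% were higher and 31.7% lower. Of the 24, 2 fell, where 4.79% of all genes did. The drug pump gene *PDR5* was mixed, with −0.15 against myriocin and 0.92 against fenpropimorph in polyA RNA, and −0.40 and 0.63 in ribo-depleted RNA.

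Genes of cAMP signalling to protein kinase A were read from a list of 17, drawn up after values had been seen. Of these, 5 were higher and 11 lower in all 4 comparisons, and *YAK1*, *TPK2* and *GPA2* were among those that fell. *YAK1*, a kinase that works against protein kinase A, had 38.1 CPM in NaCl, 183 in myriocin and 238 in fenpropimorph in polyA RNA, and 32.5, 156 and 201 CPM in ribo-depleted RNA, with the reading frame *IRC9* overlapping it. *TPK2*, which encodes a catalytic subunit, fell by at least 1.43, whereas the subunit gene *TPK3* changed by 0.43 to 0.86. *PDE2*, the high-affinity cAMP phosphodiesterase, changed by 0.97 against myriocin and 1.40 against fenpropimorph in polyA RNA, and 0.75 and 1.17 in ribo-depleted RNA.

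Nuclear genes of respiration were mostly lower in NaCl. Of 48 genes of the TCA cycle and respiratory chain, 2 were higher and 40 lower in all 4 comparisons, and 9 fell. With counts scaled to the library total, 28 were lower. The activator gene *HAP4* led with 58.4 CPM in NaCl, 347 in myriocin and 261 in fenpropimorph in polyA RNA, and 28.8, 148 and 124 CPM in ribo-depleted RNA. *NDI1*, the internal NADH dehydrogenase gene, had 34.3 CPM in NaCl, 105 in myriocin and 133 in fenpropimorph in polyA RNA, and 19.1, 56.03 and 71.3 CPM in ribo-depleted RNA, *CIT1* of citrate synthase had 73.6 CPM in NaCl, 174 in myriocin and 365 in fenpropimorph in polyA RNA, and 35.8, 74.3 and 141 CPM in ribo-depleted RNA, and the succinate dehydrogenase gene *SDH2* changed by −1.21 against myriocin and −1.77 against fenpropimorph in polyA RNA, and −1.14 and −1.81 in ribo-depleted RNA. In the gluconeogenesis and glyoxylate list, 3 of 16 genes were higher and 10 lower in all 4, and none passed the 2-fold rule.

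Mitochondrially encoded genes could be followed for only 7 of 28 reading frames. Of these 5 were lower in all 4 comparisons and none by 2-fold in all, and with a mean of at least 50 reads required 1 was left as lower. Their medians of −3.36 against myriocin in polyA RNA and −0.89 in ribo-depleted RNA were far apart. The polyA libraries held little mitochondrial intron RNA, at 2.15, 13.2 and 2.06 CPM in NaCl, myriocin and fenpropimorph. In ribo-depleted RNA it summed to 3869, 6036 and 4117 CPM. Whether the polyA median reflects the level of these transcripts was not tested.

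Hypoxic and anaerobic genes were lowest relative to fenpropimorph. Of 22 genes tested, 1 was higher and 18 lower in all 4 comparisons, and 5 fell, with medians of −0.75 against myriocin and −2.83 against fenpropimorph in polyA RNA, and −0.78 and −2.80 in ribo-depleted RNA. *DAN1* (YJR150C, chromosome X, 708811 to 709707), a cell wall mannoprotein of anaerobic cells, had 28, 776 and 10916 reads in NaCl, myriocin and fenpropimorph in polyA RNA and 13, 224 and 5811 in ribo-depleted RNA. Its change was −4.67 (interval −5.21 to −4.13) against myriocin and −8.82 (interval −9.35 to −8.29) against fenpropimorph in polyA RNA. *TIR1*, another anaerobic mannoprotein gene, had 54.7 CPM in NaCl, 193 in myriocin and 2882 in fenpropimorph in polyA RNA, and 35.3, 123 and 2642 CPM in ribo-depleted RNA. *TIR4* fell by at least 2.07, *PAU5* by at least 2.55, and *CYC7*, the hypoxic form of cytochrome c, by at least 1.67 on the log2 scale.

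Genes of the pathway that fenpropimorph blocks differed between the drugs. Of 26 ergosterol genes, 1 was higher and 10 lower in all 4 comparisons, and none passed the 2-fold rule in either direction. The medians of the list were −0.02 against myriocin and −1.57 against fenpropimorph in polyA RNA, and 0.11 and −1.54 in ribo-depleted RNA, so the list lay near 0 against myriocin and far below 0 against fenpropimorph. In single comparisons, 18 of the 26 were at least 2-fold lower in NaCl than in fenpropimorph in each library type and 0 were 2-fold changed against myriocin, although *CYB5*, for cytochrome b5, lay just under the mark at 0.9988 in polyA RNA. With counts scaled to the library total, 0 of the 26 were lower in all 4. *ERG2* (YMR202W, chromosome XIII, 667537 to 668205), a target of fenpropimorph, had 230.2 CPM in NaCl, against 242 in myriocin and 912 in fenpropimorph in polyA RNA, and 109.5 CPM in NaCl, against 103 in myriocin and 467 in fenpropimorph in ribo-depleted RNA. NaCl and myriocin were close, with a change of −0.07 (interval −0.11 to −0.03) in polyA RNA, and fenpropimorph stood alone, with a change of −1.99 (interval −2.02 to −1.95). *ERG24*, its other target, had 115 CPM in NaCl, 133 in myriocin and 384 in fenpropimorph in polyA RNA, and 34.4, 38.5 and 114 CPM in ribo-depleted RNA. *ERG3*, the C-5 desaturase gene, had 630.2 CPM in NaCl, 653 in myriocin and 3201 in fenpropimorph in polyA RNA, and 236, 261 and 1391 CPM in ribo-depleted RNA, and *ERG11*, the lanosterol demethylase gene, had 782 CPM in NaCl, 699.6 in myriocin and 2893 in fenpropimorph in polyA RNA, and 317, 292 and 1294 CPM in ribo-depleted RNA. *IDI1*, the isopentenyl diphosphate isomerase gene, was the member higher in all 4, at 0.30 to 0.67.

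The sterol response element was searched as TCGTATA and was found before 9 of the 26 ergosterol genes (34.6%), against 6.79% of all regions and 10.4% of the genes that fell. The windows of *ERG11* and *TIR4* held no match, and that of *ERG25* held 2. The sites of *ERG2* and *ERG3* are shown beside that of *DAN1*, which carries the same letters on the opposite strand (TATACGA).
ERG2, chrXIII:667342-667368: accacggcccTCGTATAagccgcaagg
ERG3, chrXII:253565-253591: aaattcaggcTCGTATAagtggcacaa
DAN1, chrX:709894-709920: tgccaagatcTATACGAggcctctaac

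Among 24 genes of sterol regulation, uptake and storage, 4 were higher and 13 lower in all 4 comparisons, and *DAN1* alone fell. That was 1 of the 24, where 4.79% of all genes fell. *HES1*, an oxysterol-binding protein gene, was far lower against fenpropimorph than against myriocin, with 6.48 CPM in NaCl, 11.3 in myriocin and 406 in fenpropimorph in polyA RNA, and 2.78, 5.204 and 182 CPM in ribo-depleted RNA. Sphingolipid genes had medians near 0 against both drugs. Of 41 genes, 10 were higher and 20 lower in all 4 comparisons, with medians of −0.10 against myriocin and −0.12 against fenpropimorph in polyA RNA, and −0.19 and −0.22 in ribo-depleted RNA. *LCB1* (YMR296C, chromosome XIII, 859215 to 860891), a subunit of the enzyme that myriocin blocks, had 271 CPM in NaCl, against 261 in myriocin and 217 in fenpropimorph in polyA RNA, with changes of 0.05 against myriocin and 0.32 against fenpropimorph in polyA RNA, and −0.19 and 0.20 in ribo-depleted RNA. *LCB2*, the catalytic subunit, changed by −0.01 against myriocin and 0.21 against fenpropimorph in polyA RNA, and −0.09 and −0.06 in ribo-depleted RNA. Over all genes 36.1% were higher and 31.7% lower. Of the 41, 4 fell, where 4.79% of all genes did: the regulator genes *YPK2* and *ORM2* and 2 ceramidase genes. *YPK2*, a kinase that activates ceramide synthesis, had 25.8 CPM in NaCl, 93.6 in myriocin and 298 in fenpropimorph in polyA RNA, and 10.7, 52.6 and 146 CPM in ribo-depleted RNA. The ceramidase genes *YDC1* and *YPC1* fell by at least 1.63 and 1.38 on the log2 scale. *ORM2*, a negative regulator of serine palmitoyltransferase, had 75.9 CPM in NaCl, 184 in myriocin and 209 in fenpropimorph in polyA RNA, and 41.3, 82.99 and 94.01 CPM in ribo-depleted RNA, at the edge of the rule, and its relative *ORM1* changed by 0.09 to 0.19. Of 34 fatty acid and phospholipid genes, 5 were higher and 11 lower in all 4 comparisons, and *INO1*, the inositol synthase gene, fell with 5.42 CPM in NaCl, 36.6 in myriocin and 40.4 in fenpropimorph in polyA RNA, and 3.07, 25.5 and 21.99 CPM in ribo-depleted RNA. *INO1* was the 1 gene of the 34 that fell, again beside 4.79% of all genes.

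Genes of the classical salt response passed the 2-fold rule at a share near that of all genes. Over the 58 genes of the sodium and potassium, glycerol and HOG lists, 0 rose, against 0.409% of all genes, and 2 fell (3.45%, against 4.79% of all genes). Of 18 genes of sodium and potassium transport, 8 were higher and 7 lower in all 4 comparisons, with medians of 0.08 against myriocin and 0.15 against fenpropimorph in polyA RNA, and 0.00 and −0.06 in ribo-depleted RNA. *ENA1* (YDR040C, chromosome IV, 535192 to 538467), the sodium pump, had 463 CPM in NaCl, against 421 in myriocin and 346 in fenpropimorph in polyA RNA, and 318 CPM in NaCl, against 324 in myriocin and 268 in fenpropimorph in ribo-depleted RNA. The changes were 0.14 against myriocin and 0.42 against fenpropimorph in polyA RNA, and −0.02 and 0.25 in ribo-depleted RNA, so NaCl and myriocin could not be separated by counting error in ribo-depleted RNA. *ENA1*, *ENA2* and *ENA5* are tandem copies on chromosome IV, and 85.2% of the 100-bp windows of *ENA1* occur in *ENA2* and 74.4% in *ENA5*, so reads of the 3 genes cannot be well separated. *HAL5*, a kinase that stabilizes potassium transporters at the plasma membrane, was the one listed gene that fell, with 83.1 CPM in NaCl, 228 in myriocin and 242 in fenpropimorph in polyA RNA, and 48.8, 123 and 141 CPM in ribo-depleted RNA. The potassium transporter gene *TRK1* and the proton pump gene *PMA1* changed by 0.08 to 0.36 and 0.03 to 0.46.

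Of 16 genes of glycerol synthesis and transport, 6 were higher and 8 lower in all 4 comparisons. *GPD1* (YDL022W, chromosome IV, 411825 to 413000), the glycerol-3-phosphate dehydrogenase gene that HOG signalling turns on, had 498 CPM in NaCl, against 309 in myriocin and 388 in fenpropimorph in polyA RNA, and 232 CPM in NaCl, against 142 in myriocin and 183 in fenpropimorph in ribo-depleted RNA. NaCl was the highest culture in both, with changes of 0.69 against myriocin and 0.36 against fenpropimorph in polyA RNA, and 0.71 and 0.35 in ribo-depleted RNA, although YDL023C overlaps it. *GPP1*, which makes glycerol from its phosphate, was closest to the 2-fold rule with 3128 CPM in NaCl, 1652 in myriocin and 1122 in fenpropimorph in polyA RNA, and 1530.1, 740.5 and 549 CPM in ribo-depleted RNA and a smallest change of 0.92. *GPP2*, the osmotically induced isoform, was higher than in myriocin but lower than in fenpropimorph, with 0.90 against myriocin and −0.25 against fenpropimorph in polyA RNA, and 1.12 and −0.33 in ribo-depleted RNA. *STL1*, the glycerol importer, had only 293, 374 and 299 reads in polyA RNA, with changes of −0.25 against myriocin and −0.27 against fenpropimorph in polyA RNA, and −0.22 and −0.01 in ribo-depleted RNA, of which both ribo-depleted ones were within counting error. The ribo-depleted value against fenpropimorph turned positive under 3 other scalings, and that against myriocin under 1 of them. *GCY1*, an aldo-keto reductase of an alternative glycerol route, fell with 20.96 CPM in NaCl, 56.2 in myriocin and 75.4 in fenpropimorph in polyA RNA, and 7.43, 20.6 and 25.4 CPM in ribo-depleted RNA. Of 24 HOG pathway components, 7 were higher and 8 lower in all 4 comparisons and none by 2-fold, and *HOG1* itself changed by −0.01 against myriocin and 0.04 against fenpropimorph in polyA RNA, and 0.04 and 0.04 in ribo-depleted RNA.

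Calcium and cell wall signalling genes were more often lower than higher. Of 16 genes of calcineurin and calcium, 3 were higher and 10 lower in all 4 comparisons, and 5 fell: *CMK2*, *RCN2*, *PMC1*, *CMK1* and *GSC2*. Over all genes 36.1% were higher, 31.7% were lower and 4.79% fell. *CMK2*, a calmodulin-dependent kinase gene, had 33.1 CPM in NaCl, 563 in myriocin and 773 in fenpropimorph in polyA RNA, and 14.9, 126 and 187 CPM in ribo-depleted RNA. *RCN2*, a calcineurin regulator, had 31.98 CPM in NaCl, 147 in myriocin and 258 in fenpropimorph in polyA RNA, and 12.5, 37.7 and 78.04 CPM in ribo-depleted RNA, and *PMC1*, the vacuolar calcium pump, had 60.6 CPM in NaCl, 157 in myriocin and 258 in fenpropimorph in polyA RNA, and 30.8, 89.4 and 153 CPM in ribo-depleted RNA. *GSC2*, the alternative glucan synthase subunit, changed by −1.01 against myriocin and −2.57 against fenpropimorph in polyA RNA, and −1.57 and −2.66 in ribo-depleted RNA. The Crz1 site GAGGCTG was found before 4.43% of the genes that fell, against 3.18% of all regions.

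Of 35 genes of the cell wall integrity pathway and the wall, 9 were higher and 19 lower in all 4 comparisons, beside 36.1% and 31.7% of all genes. In this list 6 genes fell, *YPS1*, *PIR3*, *MTL1*, *YPS3*, *SLT2* and *ROM1*, where 4.79% of all genes did. With counts scaled to the library total, 4 were higher and 11 lower. *SLT2*, the MAP kinase of the pathway, had 85.1 CPM in NaCl, 223 in myriocin and 432 in fenpropimorph in polyA RNA, and 40.2, 102 and 192 CPM in ribo-depleted RNA. *YPS1*, an aspartic protease of the cell surface, had 74.8 CPM in NaCl, 289 in myriocin and 489 in fenpropimorph in polyA RNA, and 51.6, 177 and 331 CPM in ribo-depleted RNA, and *PIR3*, a wall protein gene, had 7.14 CPM in NaCl, 21.96 in myriocin and 149 in fenpropimorph in polyA RNA, and 2.19, 11.6 and 72.1 CPM in ribo-depleted RNA. For *SLT2*, *YPS1* and *PIR3*, fenpropimorph was the highest culture, myriocin came next and NaCl was lowest.

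Ribosome genes lay on the higher side almost without exception, but by small amounts against myriocin. Of 137 ribosomal protein (RP) genes, 136 were higher in all 4 comparisons, and none was 2-fold higher in all. The medians were 0.24 against myriocin and 0.95 against fenpropimorph in polyA RNA, and 0.61 and 1.05 in ribo-depleted RNA. In polyA RNA 0 of the 137 were 2-fold higher than in myriocin and 47 than in fenpropimorph, and in ribo-depleted RNA 1 and 78. Many RP genes have near-identical copies, so the split of reads within a pair is uncertain. *RPL15B* was the exception, at −0.09 and −0.17 against fenpropimorph. *RPL22B* had the largest change against fenpropimorph in polyA RNA, at 1.69, with 0.62 against myriocin. *RPL3*, a core protein of the large subunit, had 7212 CPM in NaCl, 5394 in myriocin and 3461 in fenpropimorph in polyA RNA, and 2307, 1558 and 1102 CPM in ribo-depleted RNA. Together the RP genes took 19.8% of CDS reads in NaCl, 17.6% in myriocin and 12.5% in fenpropimorph in polyA RNA, and 9.04%, 4.66% and 4.18% in ribo-depleted RNA. Under the alternative scalings 134 to 136 of the 137 stayed higher in all 4.

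Of 93 genes of RNA polymerase I and ribosome biogenesis, 90 were higher and 1 lower in all 4 comparisons, with medians of 0.43 against myriocin and 1.48 against fenpropimorph in polyA RNA, and 0.49 and 1.37 in ribo-depleted RNA. *RRN11* alone rose. *NSR1*, a nucleolar protein gene, had 1602 CPM in NaCl, 1185 in myriocin and 367 in fenpropimorph in polyA RNA, and 665, 493 and 147 CPM in ribo-depleted RNA, with YGR160W overlapping it. *RPA190*, the largest subunit of RNA polymerase I, had 705 CPM in NaCl, 538 in myriocin and 263 in fenpropimorph in polyA RNA, and 1112, 718 and 429 CPM in ribo-depleted RNA. *STB3*, which encodes a repressor of these genes, was the member lower in all 4, at −0.44 to −1.05, and *SFP1*, an activator, lay between −0.09 and 0.08. The PAC box GATGAG was present before 82 of the 93 genes (88.2%), against 27.9% of all regions.

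**Figure D4:**
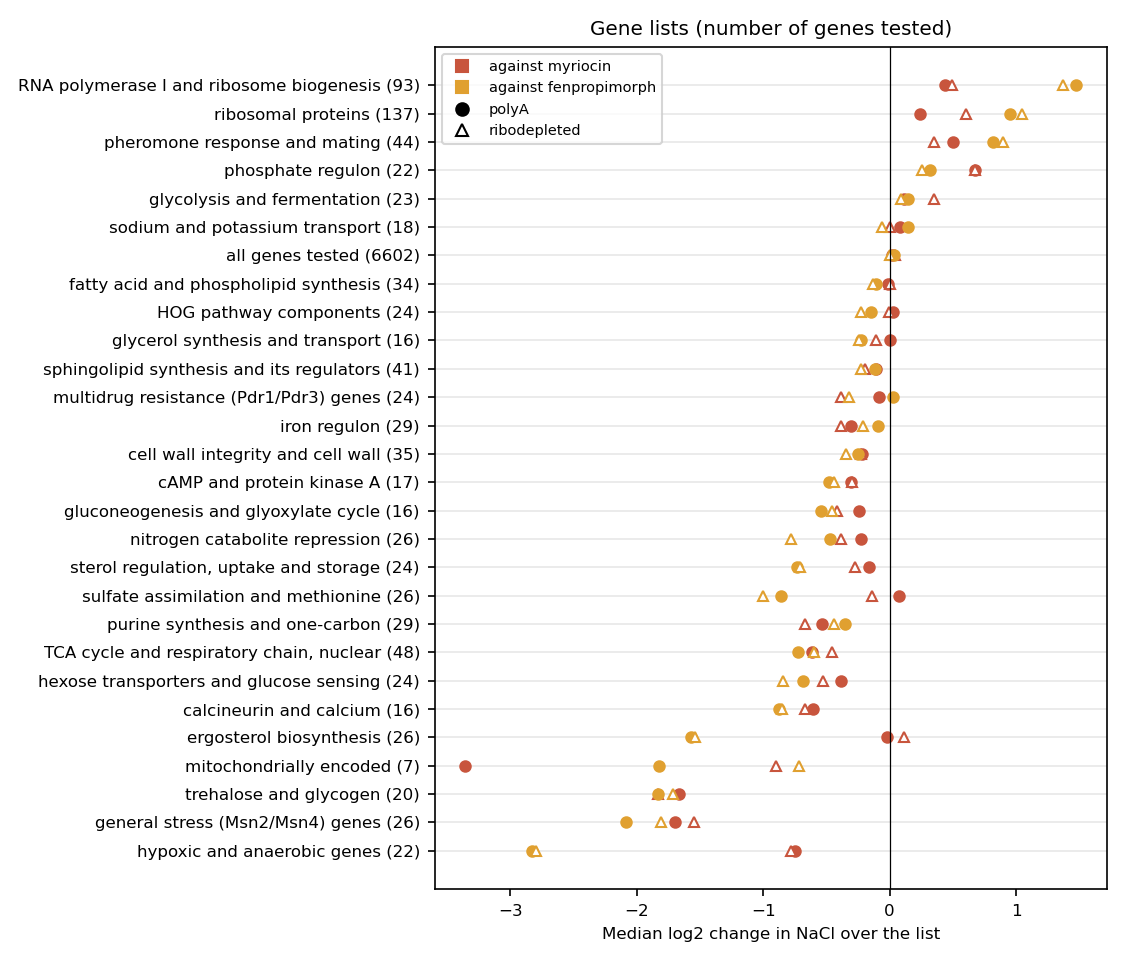
Median log2 change in NaCl over each gene list (list size in brackets), against myriocin and against fenpropimorph, in polyA (circles) and ribo-depleted RNA (triangles). Both ribosome lists lie at the top, general stress, trehalose and glycogen, and hypoxic lists at the bottom, and the ergosterol list has its myriocin points near 0 and its fenpropimorph points near −1.5.

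Phosphate genes were mostly higher. Of 22 genes of the phosphate regulon, 14 were higher and 2 lower in all 4 comparisons. *VTC3*, of the complex that makes polyphosphate, had 804 CPM in NaCl, 247 in myriocin and 414 in fenpropimorph in polyA RNA, and 406, 127 and 238 CPM in ribo-depleted RNA, and the phosphate transporter gene *PHO84* changed by 1.90 against myriocin and 0.80 against fenpropimorph in polyA RNA, and 1.29 and 0.36 in ribo-depleted RNA. *PHM8*, a phosphatase gene, fell by at least 1.35. Of 29 iron regulon genes, 3 were higher and 11 lower in all 4 comparisons, with *TIS11*, which directs decay of mRNAs when iron is scarce, at −1.72 or lower and the oxidase gene *FET3* changing by 1.08 against myriocin and 2.64 against fenpropimorph in polyA RNA, and 0.76 and 2.36 in ribo-depleted RNA. Of 26 genes of sulfate assimilation and methionine, 2 were higher and 10 lower in all 4 comparisons, and the methionine permease gene *MUP3* fell. Of 26 genes of nitrogen catabolite repression, 1 was higher and 15 lower in all 4 comparisons, and the proline oxidase gene *PUT1* fell with 8.203 CPM in NaCl, 30.5 in myriocin and 39.5 in fenpropimorph in polyA RNA, and 4.45, 24.7 and 28.8 CPM in ribo-depleted RNA. In each of the phosphate, iron, sulfate and nitrogen lists 1 gene fell, where 4.79% of all genes did, so these falls describe single genes.

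The high glucose and LiCl cultures, also wild type and not used in the comparison, place these sets among the single stressors, with no test. The study describes its 20% glucose culture as late exponential and its LiCl culture as mid-exponential. For glucose, growth phase and stressor therefore cannot be told apart. The LiCl libraries stand apart in mating type markers, with 1656 *MF(ALPHA)1* reads in polyA and 399 in ribo-depleted RNA, whose part in these values was not tested. The genes below were chosen by their values in these same NaCl libraries, so a low or high place of NaCl is partly built in. The 316 genes held 0.767% of CDS reads in NaCl, against 2.53% in 20% glucose and 12.8% in LiCl in polyA RNA, and 0.585%, against 1.65% and 5.79%, in ribo-depleted RNA. *HSP42* had 5.19 CPM in NaCl, against 374 in glucose and 941 in LiCl in polyA RNA, so NaCl was the lowest of the 5 cultures. *AGA1* in turn had 362 CPM in NaCl, against 428 in glucose and 80.4 in LiCl, so glucose lay above NaCl. *HXT1* had 1684 CPM in NaCl, against 601 in glucose and 15.9 in LiCl.

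Intron retention, the read density of an intron over that of the CDS of its gene, was measured for 286 of 297 introns with enough reads. Retention was higher in NaCl in all 4 comparisons for 47 introns (16.4%) and lower for 51 (17.8%). No intron was 2-fold higher in all 4 (0%), and 1 was 2-fold lower (0.35%). In single comparisons 2.45% of introns were 2-fold higher and 5.59% lower against myriocin in polyA RNA, and 0.35% and 10.8% in ribo-depleted RNA. Against fenpropimorph 15% were higher and 2.1% lower in polyA RNA, and 8.39% and 3.15% in ribo-depleted RNA. The median changes over all introns were −0.06 against myriocin and 0.38 against fenpropimorph in polyA RNA, and −0.21 and 0.29 in ribo-depleted RNA. Over the 102 introns of RP genes they were 0.10, 0.83, −0.16 and 0.64 in the same order, and over the 184 other introns −0.21, 0.07, −0.30 and 0.02. Of the RP introns, 27 were higher and 2 lower in all 4 comparisons, and of the other introns 20 were higher and 49 lower. Of the 24 introns in 5′ UTRs, 7 were higher and 3 lower.

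The intron that passed the rule is in *HNT1* (YDL125C, chromosome IV, 239019 to 239606, minus strand), which encodes an adenosine monophosphoramidase. This CDS intron of 111 bp lies at chrIV:239399-239509. It had 87 reads in NaCl, against 574 in myriocin and 416 in fenpropimorph in polyA RNA, and retention was 6.23%, 26.1% and 22.4%. In ribo-depleted RNA it had 86 reads in NaCl, against 268 and 260, and retention was 18.03%, 55.01% and 45.6%. NaCl was lowest in both, with changes of −2.06 against myriocin and −1.84 against fenpropimorph in polyA RNA, and −1.61 and −1.34 in ribo-depleted RNA. The CDS reads of *HNT1* changed by −0.55 against myriocin and −0.64 against fenpropimorph in polyA RNA, and −0.04 and −0.22 in ribo-depleted RNA. Its splice sites are shown, since it is the intron that passed the rule: the first 20 bases with the 5′ splice site in capitals, a stretch around the branch point sequence TACTAAC in capitals, and the last 20 bases with the 3′ splice site in capitals.
HNT1 intron, first 20 bases: GTATGTcacattactaataa
HNT1 intron, branch point: aagcagaaTACTAACaatcgatc
HNT1 intron, last 20 bases: atcgatccgctatgcaaCAG

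Next on the lower side were the introns of *MRA1*, *LSB3*, *BMH2* and *GLC7*. The 5′ UTR intron of *BMH2*, a 14-3-3 protein gene, changed by −0.84 against myriocin and −0.95 against fenpropimorph in polyA RNA, and −1.18 and −0.69 in ribo-depleted RNA, on 263 to 740 reads per library. The CDS intron of *GLC7*, the catalytic subunit of protein phosphatase 1, changed by −1.02 against myriocin and −0.63 against fenpropimorph in polyA RNA, and −0.72 and −0.71 in ribo-depleted RNA. Those of *MRA1* and *LSB3* rested on 10 to 56 reads per library, and some of their counting intervals reached above 0.

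On the higher side stood the introns of *USV1*, *APS3*, *RPL28*, *RPS25A* and *RPS9B*. The 5′ UTR intron of *USV1*, a stress-responsive transcription factor gene, had only 23 reads in NaCl in polyA RNA and 9 in ribo-depleted RNA, while the CDS of *USV1* fell by at least 2.73 on the log2 scale. Its retention change was 1.46 against myriocin and 1.12 against fenpropimorph in polyA RNA, and 0.75 and 0.99 in ribo-depleted RNA. The CDS intron of *RPL28* had 6029 reads in NaCl, against 3152 in myriocin and 1332 in fenpropimorph in polyA RNA, and its retention was 5.76%, 3.504% and 3.02%. The change was 0.72 against myriocin and 0.93 against fenpropimorph in polyA RNA, and 0.38 and 0.55 in ribo-depleted RNA. The CDS intron of *RPS9B* changed by 0.86 against myriocin and 1.07 against fenpropimorph in polyA RNA, and 0.34 and 1.10 in ribo-depleted RNA, and the 5′ UTR intron of *RPS25A* by 0.35 against myriocin and 0.53 against fenpropimorph in polyA RNA, and 0.45 and 1.08 in ribo-depleted RNA. Both introns of *RPS22B* were mixed in direction. The CDS intron, which holds a small nucleolar RNA, changed by −0.31 against myriocin and 0.02 against fenpropimorph in polyA RNA, and −0.62 and −0.70 in ribo-depleted RNA, and the 5′ UTR intron by −0.59 against myriocin and 0.03 against fenpropimorph in polyA RNA, and −0.43 and 0.63 in ribo-depleted RNA.

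**Figure D5:**
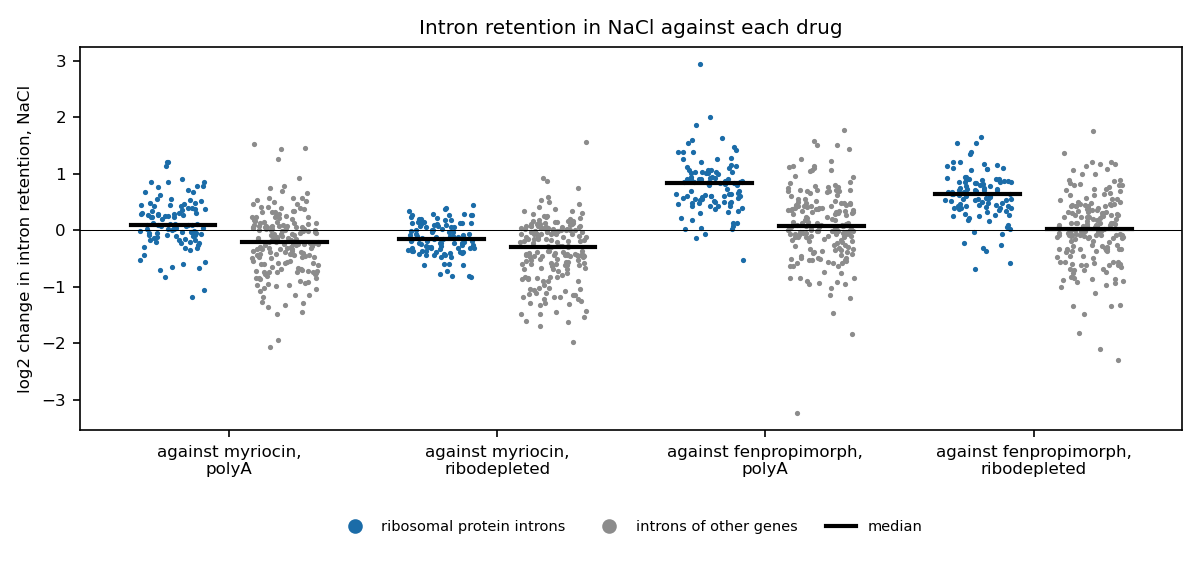
Log2 change in intron retention in NaCl for each of 286 introns, in RP genes (102) and other genes (184), against each drug and in each library type, with medians as black bars. Points centre near 0 against myriocin, and most RP introns lie above 0 against fenpropimorph, with medians of 0.83 and 0.64.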

How the data were processed

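RNA of each culture was sequenced as paired 100-bp reads after polyA selection or ribosomal RNA depletion with strand-specific kits. Per the labels and the methods, the authors trimmed reads with cutadapt, aligned them to the yeast genome R64 with TopHat or HISAT2 (the labels name HISAT2) and deposited featureCounts counts, raw read counts per CDS or intron together with the feature length in bp. The strand setting, pair handling and multimapping of the counting are not given in the sources used here.

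Counts were scaled by TMM (edgeR 4.0.16 in R 4.3.3) over the 8 libraries of a type, and a change is the log2 ratio after adding 0.5 reads. Genes needed a mean of 10 reads over the 8 libraries in each type. Retention is intron density over CDS density, with a mean of at least 10 intron and 10 CDS reads. The groups came from the treatment labels. With 1 library per culture and type no test was possible, and 95% intervals cover counting error only. Depth was 34239434 to 50337762 CDS reads per library. On simulated data for this comparison with 6602 genes, 200 of 200 genes changed 4-fold were recovered with 0 false calls. Apart from the planted changes, the simulated counts varied by counting error only, around a mean shared by the cultures. The run checks the calculation and cannot give the rate of false calls in the real libraries.

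Genes were named by rule: the 15 largest increases and decreases with a mean of at least 50 reads and a symbol, the 2-fold members of each list (or its 3 largest), the 5 introns most changed each way, those of *RPS22B*, and *ENA1*, *GPD1*, *STL1*, *HSP12*, *ERG2*, *ERG24*, *LCB1* and *LCB2*. Other genes were chosen after their values were seen. The members and lists were chosen with earlier results of these data known, and the pheromone, purine, glycolysis and protein kinase A lists and the motifs TGAAACA and TGACTC after their values were seen. Symbols came from a RefSeq table for 6014 of 6697 identifiers. Sequences came from the R64 genome, and divergent genes can share an upstream window. The alternatives were DESeq2 1.42.0 size factors, library totals, TMM over the 3 libraries compared, other filters, another pseudocount and another intron denominator. Introns of tRNA and small nucleolar RNA genes (62) and mitochondrial introns (12) were left out. Python 3.11.15, numpy 2.4.6, pandas 2.3.3 and matplotlib 3.10.9 were used. Some genes are not reported here.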

Additional observations from a re-analysis of the deposited data

Results flagged for a closer look

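*HSP12* had opposite signs against the drugs in both library types: −0.97 against myriocin and 1.67 against fenpropimorph in polyA RNA, and −0.18 and 2.22 in ribo-depleted RNA. The smallest size was 0.18, and the difference was not tested.

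The reading frames YLR154W-B, *TAR1* and YLR154C-G, in the ribosomal DNA region of chromosome XII, had opposite signs between the library types. They were lower in NaCl in polyA RNA, by at least 1.09, 1.05 and 1.04 on the log2 scale in that order, and higher in ribo-depleted RNA. *TAR1* had 9509 reads in NaCl, against 99814 in myriocin and 16640 in fenpropimorph in polyA RNA, and 4963, against 1928 and 1312, in ribo-depleted RNA. Other frames of the region, such as *RRT15* and YLR162W, had the same opposite signs. The strand setting of the counting is not given, so reads of these frames and of ribosomal RNA left in a library cannot be told apart. The difference was not tested.

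Introns of tRNA and small nucleolar RNA genes, which entered no comparison, summed to 142 CPM in NaCl, against 94.4 CPM in myriocin and 63.9 CPM in fenpropimorph in ribo-depleted RNA. In polyA RNA they summed to 16.3 CPM in NaCl, against 16.3 CPM in myriocin and 10.4 CPM in fenpropimorph. These differences were not tested.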

How the results depend on the processing

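The number of 2-fold genes was 23 to 32 higher and 228 to 329 lower over the alternatives, against 27 and 316. With counts scaled to the library total the median change of all genes became −0.06 against myriocin and −0.26 against fenpropimorph in polyA RNA, and 0.42 and 0.08 in ribo-depleted RNA. The genes lower in all 4 comparisons then numbered 1227, against 2095, the higher share of genes with one direction was 60.7%, against 53.2%, and 22 of the 27 and 223 of the 316 genes remained 2-fold. Under that scaling *ERG24* turned to 0.21 against myriocin in ribo-depleted RNA, while its other values were −0.28 against myriocin in polyA RNA and −2.03 and −1.66 against fenpropimorph in polyA and ribo-depleted RNA. *STL1* turned in ribo-depleted RNA, to 0.16 against myriocin and 0.06 against fenpropimorph there, and against fenpropimorph to 0.0069 with DESeq2 size factors and to 0.011 with TMM that left out ribosomal protein and biogenesis genes. Introns 2-fold higher in all 4 numbered 1 (*USV1*) with a pseudocount of 5, against 0. With intron reads set against the library size in place of the CDS, 2 were 2-fold higher (*RPL28* and *RPS10B*) and 11 lower, against 0 and 1. The causes were not tested. Of the other values, 755 stayed close to the main value and 37 moved further from it. Close meant within the widest counting error of a gene, or within a fixed ratio for the count of a list. TMM without ribosome genes, genes in the RefSeq table only and genes without overlapping CDS were alternatives chosen after seeing the data. No paired analysis was possible because each culture had 1 library per library type and the labels carry no replicate numbers. Depth limits *PRM6*, *FIG1*, *DAN1* and the introns of *USV1*, *APS3*, *MRA1* and *LSB3*, which had few reads.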

Other observations

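Some genes differed strongly between the drugs with NaCl in between, and so belong to neither set. *LEU1*, which encodes isopropylmalate isomerase of leucine synthesis, changed by 1.38 against myriocin and −1.51 against fenpropimorph in polyA RNA, and 1.35 and −1.13 in ribo-depleted RNA. YER053C-A, an uncharacterised reading frame, changed by −2.02 against myriocin and 2.28 against fenpropimorph in polyA RNA, and −1.88 and 2.15 in ribo-depleted RNA. Both kept their signs in both library types.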
